A study of Mus musculus with 17 samples.

Results

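The measurements described here are the enhancer rows of genes that have many of them. The deposited count table holds, beside its gene rows, rows named by an Ensembl gene identifier followed by enh, with or without a number. A gene was taken when it had at least 10 such rows, and a row was kept when at least 3 of the 17 libraries gave it 10 or more counts. That rule took 11373 rows of 788 genes, of which 5364 rows (47.2%) of 670 genes were kept, out of 96004 rows in the whole table. Of the 6009 rows that were not kept, 1704 had no count in any library. The gene that shares its identifier with an enhancer row is called its host gene below, and a row is named by the symbol of the host and the end of its name, as in Angpt1 enh.17.

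RNA came from mouse bone marrow cells sorted for the cKit receptor and against lymphoid and erythroid markers, a fraction rich in haematopoietic stem and progenitor cells. Genotypes at the URE and at Tet2 gave 6 groups. Of these, 4 are labelled Normal, with 3 libraries each: URE+/+;Tet2+/+ (WT), UREΔ/+;Tet2+/+ (URE het), URE+/+;Tet2+/- (Tet2 het) and URE+/+;Tet2-/- (Tet2 KO). The remaining 2 are labelled AML, acute myeloid leukaemia: UREΔ/+;Tet2+/- (URE het Tet2 het, 2 libraries) and UREΔ/+;Tet2-/- (URE het Tet2 KO, 3 libraries). No group carries the compound genotype without the disease label, so the effects of genotype and of disease cannot be told apart. The sources used here do not give age, sex, the source of the alleles or the number of mice per library for each sample. The p-values therefore measure the spread between these libraries, and replicate numbers only name libraries in accession order.

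Enhancers are stretches of DNA that bind transcription factors and raise the activity of promoters, often from within or beside the gene they act on. Active enhancers are themselves transcribed at a low level, and genes that set cell identity tend to be surrounded by clusters of them. The URE is an enhancer of Spi1, which encodes the ETS family transcription factor PU.1, a regulator of myeloid and stem cell genes, and Tet2 encodes an enzyme that oxidises methylated cytosine in DNA.

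No coordinates, lengths or strands of the enhancer rows are in the sources used here, so their own sequence cannot be shown and levels cannot be compared per length. What can be shown is the reference promoter of hosts whose rows moved together. RefSeq (GRCm38.p6) gave a promoter for 596 of the 788 hosts. The 6 letters GAGGAA, which hold the GGAA core bound by ETS factors, were searched on both strands (as TTCCTC on the other) in the 250 bases before each start. They occurred in 23.3% of 32851 promoters of all genes and in 25.7% of 883 promoters of the hosts. Of the 20 hosts with the most enhancer rows called in AML against Normal (10 in each direction), 15 had a promoter and 6 of those held the letters. This counts hosts, while the shares above count promoters, so they are not compared. The promoters taken for Nfia, Daam1, Meis1, Aff3 and Bach2 did not hold the letters. The 4 shown were picked from the 6 that did. They are those of Hdac9 and F13a1, whose rows were higher in AML, and of Plxnc1 and Cd44, whose rows were lower. They are read 5′ to 3′ with the motif in capitals. A match describes the letters of the reference only.

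Hdac9 promoter, chr12:34917096-34917345, minus strand: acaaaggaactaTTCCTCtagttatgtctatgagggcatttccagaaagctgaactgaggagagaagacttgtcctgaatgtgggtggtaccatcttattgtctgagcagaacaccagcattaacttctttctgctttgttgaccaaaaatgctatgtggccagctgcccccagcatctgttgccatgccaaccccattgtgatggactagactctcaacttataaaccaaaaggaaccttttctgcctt
F13a1 promoter, chr13:37050245-37050494, minus strand: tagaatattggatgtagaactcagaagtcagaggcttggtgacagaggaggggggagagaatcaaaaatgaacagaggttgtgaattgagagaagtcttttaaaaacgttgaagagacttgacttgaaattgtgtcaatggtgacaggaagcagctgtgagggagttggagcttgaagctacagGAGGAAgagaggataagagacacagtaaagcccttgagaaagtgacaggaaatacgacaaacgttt
Plxnc1 promoter, chr10:94944846-94945095, minus strand: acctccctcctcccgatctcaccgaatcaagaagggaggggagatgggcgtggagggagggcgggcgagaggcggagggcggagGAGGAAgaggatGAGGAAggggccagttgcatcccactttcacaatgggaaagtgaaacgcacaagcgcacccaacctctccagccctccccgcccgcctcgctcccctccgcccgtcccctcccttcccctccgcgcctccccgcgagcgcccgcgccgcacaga
Cd44 promoter, chr2:102901666-102901915, minus strand: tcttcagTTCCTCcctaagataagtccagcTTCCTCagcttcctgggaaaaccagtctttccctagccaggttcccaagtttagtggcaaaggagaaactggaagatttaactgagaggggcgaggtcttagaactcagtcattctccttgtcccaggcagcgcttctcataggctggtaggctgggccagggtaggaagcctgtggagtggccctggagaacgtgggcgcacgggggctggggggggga

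Counts over gene rows came to 21.1 to 38.3 M per library, and the kept enhancer rows added 0.183 to 0.538 M. Values below are CPM, counts scaled to a common library size, with library sizes and TMM factors taken from gene rows. The enhancer rows of these hosts made up 0.659% (URE het replicate 2) to 1.62% (Tet2 het replicate 2) of all counts of a library, and all enhancer rows together 2.63% to 5.71%. As a check of the labels, the gene row of Tet2 stood at 108 to 133 CPM in WT and at 80.2 to 86.2 CPM in Tet2 KO. In the other group labelled Tet2-/-, URE het Tet2 KO, it stood at 112, 112 and 176 CPM, within or above the WT range. Where the deletion lies is not stated, so reads outside it do not test the knockout. Spi1 ranged over 45.2 to 137 CPM in Normal and stood at 21.7, 34.9, 98.9, 7.82 and 12.2 CPM in the AML libraries, in the order URE het Tet2 het replicates 1 and 2, then URE het Tet2 KO replicates 1 to 3, which is used throughout. The labelled progenitor markers summed to 2800 to 7350 CPM in Normal and 5562 to 8292 CPM in AML. Late neutrophil markers (6 genes) summed to 24888 to 88936 CPM in Normal and to 10219 to 32048 CPM in AML, and B cell markers to 7.11 to 26.4 and 1.45 to 8.41 CPM. T and NK cell markers gave 60.2 to 152 and 18.6 to 92.8 CPM, and mast cell, basophil and eosinophil markers 90.4 to 262 and 19.7 to 98.5 CPM. Stroma and endothelium markers gave 36.01 to 58.8 and 19.04 to 143 CPM, erythroid markers 2.02 to 41.9 and 0.634 to 12.4 CPM, megakaryocyte markers 8.56 to 16.7 and 1.57 to 19.6 CPM, and monocyte and dendritic cell markers 119 to 265 and 62.99 to 183 CPM. The part of these differences in the results below was not tested.

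Summed over the kept enhancer rows, the level (mean ± SD, n = 3 except where given) was 9847 ± 1857 CPM for WT, 10540 ± 3499 CPM for URE het and 13716 ± 2026 CPM for Tet2 het. Tet2 KO came to 8842 ± 1646 CPM, URE het Tet2 KO to 7730 ± 355 CPM and URE het Tet2 het (n = 2) to 11682 ± 1227 CPM. The Tet2 het libraries were the highest as a group, and URE het Tet2 KO the lowest. Normal came to 10736 ± 2778 CPM (n = 12) and AML to 9311 ± 2264 CPM (n = 5), and the values of the libraries overlap.

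**Figure D1:**
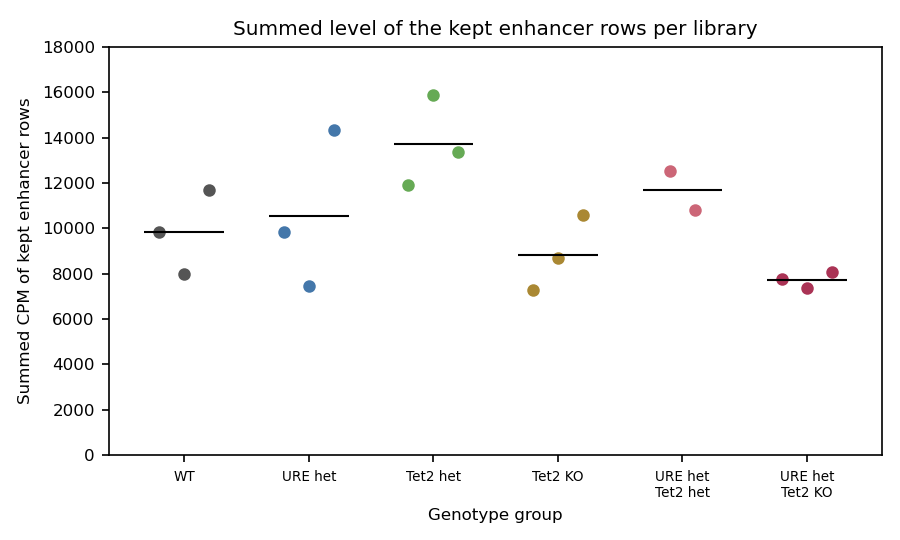
Summed CPM of the 5364 kept enhancer rows (vertical axis) by genotype group (horizontal axis), each point 1 library and each line a group mean. Values run from 7288 to 15901 CPM, and Normal and AML libraries overlap.

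The hosts were long genes: their median span in the annotation was 103 kb, against 25.0 kb for the hosts of 1 to 9 enhancer rows. Of the 788 hosts, 728 were protein coding, 19 were lincRNA genes and 18 microRNA genes. Foxp1, a forkhead transcription factor (chr6:98925338-99522721), had the most kept rows, 49 of 51. A host without a symbol in the annotation used here had 29 of 29, and Wwox, a tumour suppressor gene, 25 of 25. Hosts with a symbol, clone-named genes left out, were ranked by the mean of their summed level over the 17 libraries. The highest were Runx1 (198 CPM), Dtnbp1 (184 CPM), Arid1b (154 CPM), Foxp1 (131 CPM) and Nedd9 (97.4 CPM). Runx1 encodes a master transcription factor of haematopoiesis, Arid1b a subunit of the BAF chromatin remodeller and Nedd9 an adhesion scaffold.

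Within a host the counts were uneven. In the median host the strongest kept row held 28.7% of the counts of all its kept rows, added over the libraries. A single row carried 89.1% of these counts at Dtnbp1 and 63.0% at Arid1b, but 7.11% at Foxp1. Runx1 (chr16:92601466-92826149) showed a sharp break: its rows enh to enh.11 had between 2305 and 29178 counts each over all libraries, while its 15 rows enh.12 to enh.26 had 0 to 85 counts and none was kept. The numbers in the names carry some order. Over pairs of kept rows of the same host, the median difference in log2 CPM was 0.62 for consecutive numbers (4357 pairs), 0.75 for numbers 2 to 4 apart and 0.92 for numbers 5 or more apart. For the log2 fold change of AML against Normal these medians were 0.25, 0.29 and 0.38. Rows of 1 host share its transcription unit or its surroundings and are not independent.

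The single genotypes were compared with WT first. In edgeR's quasi-likelihood test with Benjamini-Hochberg adjustment over all 40587 rows tested, no kept row was called at 0.05 in URE het, Tet2 het or Tet2 KO against WT, and the share called among all rows was 0.0% in each. At an unadjusted p under 0.05, 140 kept rows were found in URE het (2.61% of the kept rows, beside 3.62% among all rows tested), 330 in Tet2 het (6.15% beside 4.42%) and 167 in Tet2 KO (3.11% beside 3.1%). DESeq2 called 0, 0 and 2 kept rows. In Tet2 het the median log2 fold change of the kept rows was 0.58, with 82.9% above 0, against 0.42 for enhancer rows of hosts with 1 to 9 and 0.00 for gene rows. With TMM factors taken from enhancer rows the median of the kept rows was 0.12, so their position depends on this choice of scale. In URE het the median was 0.13 and in Tet2 KO it was -0.10.

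AML was compared with Normal by setting the average of the 2 AML groups against that of the 4 Normal groups. It called 260 kept rows, 4.85% of them, beside 6.59% of all rows tested. Of these 117 rows in 57 hosts were higher and 143 rows in 62 hosts were lower, and 2 hosts had both. The shares, 2.18% higher and 2.67% lower, stand beside 4.36% higher and 2.23% lower among all rows tested, and beside 3.51% and 0.656% among enhancer rows of hosts with 1 to 9. The median log2 fold change over all kept rows was -0.20, against 0.07 for those other enhancer rows and 0.05 for gene rows. Of the kept rows, 49 had 10 counts in no Normal library and 189 in no AML library, so these passed the filter through 1 side. Among the calls they were 25 of the 117 higher and 28 of the 143 lower rows. With 1 or 2 Normal libraries at 10 counts included, 291 kept rows and 51 of the higher rows had fewer than 3.

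The AML libraries did not behave alike. URE het Tet2 het replicate 1 lay above all 12 Normal libraries in 96.6% of the 117 rows called higher, and URE het Tet2 KO replicates 2 and 3 in 92.3% and 90.6%. URE het Tet2 het replicate 2 did so in 19.7% and URE het Tet2 KO replicate 1 in 24.8%. For the 143 rows called lower, replicate 2 of URE het Tet2 het lay below all Normal libraries in 21.0%, and the other 4 AML libraries in 70.6% to 87.4%. These shares describe rows that were called for a difference between AML and Normal, and are no test. The same shares over all rows are not given here, so the part of the selection in them cannot be told. The count of calls followed: it was 28 (6 higher, 22 lower) without URE het Tet2 het replicate 1, 117 without URE het Tet2 KO replicate 2, 109 without replicate 3 and 624 without replicate 1 of the same group. Leaving out the other URE het Tet2 het library, replicate 2, gave 654, and leaving out Tet2 KO replicate 2 gave 169. The 2 AML groups weigh the same in this comparison, whatever their number of libraries. Without 1 URE het Tet2 het library the other stands alone for that group and weighs more. A call lost in that omission, here and below, therefore need not rest on the library left out. The direction of the calls also moved with the setting. There were 164 higher and 501 lower rows by DESeq2, 193 and 367 with a term for libraries numbered up to 7 or from 8 in the titles, 96 and 632 among libraries 8 to 17 alone, and 48 and 90 with 10 counts required in 9 libraries.

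**Figure D2:**
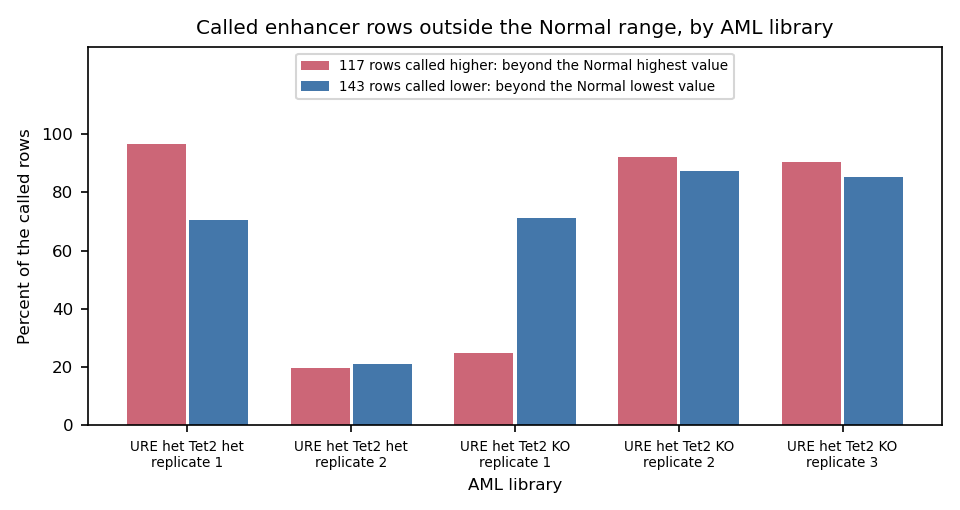
Percent of the enhancer rows called higher or lower in AML (vertical axis) in which each AML library (horizontal axis) lies beyond every Normal library. Red bars stand for the 117 rows called higher and blue bars for the 143 called lower; URE het Tet2 het replicate 2 is at 19.7% and 21.0%.

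Rows were higher in AML at several hosts in blocks. F13a1 (chr13:36867178-37050244), the gene of the coagulation factor XIII A chain that monocytes express, had all 5 of its kept rows called. Their sum ran from 8.88 to 56.8 CPM in Normal with a median of 14.9 CPM. In the AML libraries it was 163, 30.6, 17.8, 196 and 155 CPM. So 3 AML libraries stood above every Normal library and 2 lay within their range. The rows rose by 2.31 to 2.95 on the log2 scale, as did the gene row (2.32 ± 0.39 SE, edgeR adjusted p = 0.00267). For F13a1 enh.1 the change was 2.42 ± 0.49 (edgeR adjusted p = 0.00755). Without URE het Tet2 het replicate 1 none of the 5 rows passed, with an adjusted p of 0.163 for enh.1.

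Nfia, a nuclear factor I transcription factor gene (chr4:97772734-98118874), had 11 of 22 kept rows called higher, and its 22 log2 fold changes ran from 1.17 to 2.99. The summed level was 2.95 to 13.2 CPM in Normal with a median of 7.10 CPM, and 82.3, 5.08, 7.80, 37.8 and 29.5 CPM in the AML libraries. Again 3 AML libraries were above all Normal libraries, and the other 2 were among them. The Nfia gene row moved alike, by 2.59 ± 0.46 (edgeR adjusted p = 0.00385). Tm2d1, whose gene lies further along the same chromosome at chr4:98355370-98383306, had 3 of 6 rows called higher while its gene row stood at -0.07 ± 0.26 (edgeR adjusted p = 0.921). The Tm2d1 count was 0 when replicate 1 of URE het Tet2 het was left out, 1 without any 1 of several Normal libraries or URE het Tet2 KO replicate 2 or 3, and 6 without URE het Tet2 KO replicate 1.

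Hdac9, a class IIa histone deacetylase gene (chr12:34047580-34917095), had 10 of 19 kept rows called higher, with log2 fold changes from 1.31 to 5.10. Its sum was 4.28 to 19.3 CPM in Normal and 89.1, 9.84, 1.99, 30.4 and 138 CPM in the AML libraries. URE het Tet2 KO replicate 1 was below every Normal library here, unlike the other replicates of its group. The Hdac9 gene row gave 2.37 ± 0.56 (edgeR adjusted p = 0.0185). Without URE het Tet2 het replicate 1 no row of Nfia or Hdac9 passed, while without URE het Tet2 KO replicate 1 there were 17 at each. Nfia had 4 without URE het Tet2 KO replicate 2 or 3, 6 without Tet2 het replicate 3 and 19 when replicate 2 of URE het Tet2 het was left out, and Hdac9 had 5 without URE het Tet2 KO replicate 3.

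Among hosts whose rows were lower in AML, Angpt1 (chr15:42424723-42676977), the angiopoietin ligand of the Tie2 receptor that stem cells and their niche express, had 12 of 19 kept rows called lower. The sum was 16.5 to 137 CPM in Normal, with a median of 30.0 CPM, and 0.326, 52.4, 0.636, 1.98 and 0.151 CPM in AML. Thus 4 AML libraries fell far below every Normal library and URE het Tet2 het replicate 2 lay within their range. Angpt1 enh.17 changed by -3.96 ± 0.83 (edgeR adjusted p = 0.00929) and passed with each of the 17 libraries left out, with adjusted p from 0.00157 to 0.0456. The number of Angpt1 rows that passed went from 3 without URE het Tet2 KO replicate 3 to 19 without URE het Tet2 het replicate 2, and leaving out a library of any of the 6 groups could lower it.

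Meis1, the homeobox partner of HOXA9 in stem cells and leukaemia (chr11:18879817-19018985), had 5 of 8 kept rows called lower. Normal libraries gave 6.49 to 53.3 CPM with a median of 18.2 CPM, and the AML libraries 0.0326, 18.6, 1.78, 0.201 and 0 CPM. The same library, URE het Tet2 het replicate 2, was alone among the AML libraries inside the Normal range. Meis1 enh.4 changed by -3.70 ± 0.79 (edgeR adjusted p = 0.0109) and passed in all 17 omissions (adjusted p 9.1e-05 to 0.032). The Meis1 gene row gave -2.91 ± 0.85 and missed the threshold (edgeR adjusted p = 0.0508). Only 1 Meis1 row passed without URE het Tet2 het replicate 1, and 8 passed without replicate 2 of that group or replicate 1 of URE het Tet2 KO.

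Plxnc1, a semaphorin receptor gene (chr10:94790866-94944835), had 5 of 9 kept rows called lower. Its sum was 21.6 to 42.1 CPM in Normal and 3.79, 16.02, 16.5, 0.716 and 1.84 CPM in AML. Here every AML library was below every Normal library. Plxnc1 enh.2 changed by -2.04 ± 0.47 (edgeR adjusted p = 0.0156), close to the gene row (-2.03 ± 0.55, edgeR adjusted p = 0.0344). No Plxnc1 row passed without URE het Tet2 het replicate 1, where enh.2 had an adjusted p of 0.12.

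**Figure D3:**
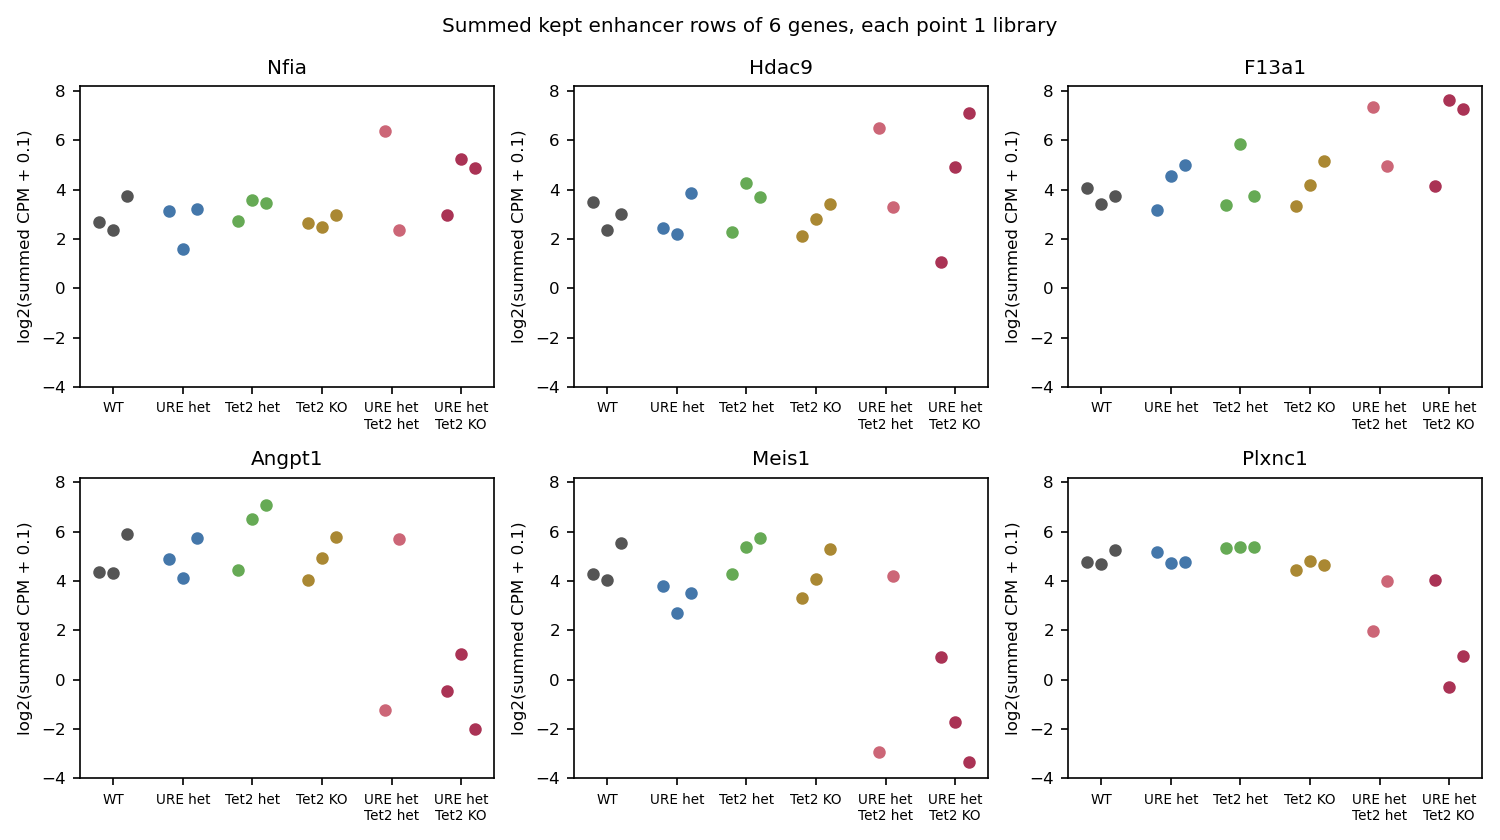
Summed CPM of the kept enhancer rows of Nfia, Hdac9, F13a1, Angpt1, Meis1 and Plxnc1, as log2(sum + 0.1) (vertical axis), by genotype group (horizontal axis), each point 1 library. For Angpt1 and Meis1 URE het Tet2 het replicate 2 stays among the Normal libraries (52.4 and 18.6 CPM) while the other 4 AML libraries are far below.

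Other hosts with several rows called lower were Mir6368 (7 of 22), Aff3 (5 of 20), Bach2 (4 of 22), Ikzf2 (4 of 21), Inpp4b (4 of 15), Cd44 (4 of 7) and Bach2os (3 of 7, an antisense transcript whose span lies within Bach2, so that reads of the pair may be mixed). Aff3 encodes a transcription elongation factor, Bach2 and Ikzf2 lymphoid transcription factors, Inpp4b a phosphoinositide phosphatase and Cd44 the hyaluronan receptor. Their median log2 fold changes ran from -3.53 (Bach2) to -1.29 (Cd44). Cd44 summed to 24.6 to 57.5 CPM in Normal and to 12.3, 37.5, 18.6, 5.82 and 5.59 CPM in AML, so URE het Tet2 het replicate 2 alone overlapped Normal. These counts moved when single libraries were left out. With replicate 1 of URE het Tet2 het left out, no row passed at Cd44, Bach2, Ikzf2 or Bach2os, 1 passed at Aff3, and 2 passed at Mir6368 and at Inpp4b. Leaving out URE het Tet2 KO replicate 2 gave 0 at Bach2, 1 at Ikzf2, Aff3, Cd44 and Bach2os, and 2 at Mir6368. With replicate 2 of URE het Tet2 het left out there were 21 at Mir6368, 20 at Aff3, 19 at Ikzf2, 15 at Bach2, 9 at Inpp4b and 5 at Bach2os. Libraries of other groups mattered too: Aff3 had 1 row without Tet2 KO replicate 3. Higher rows were also counted at Tbl1xr1 (7 of 21), Daam1 (4 of 14), Mir6417 (3 of 4), Amigo2 (3 of 10) and Il20rb (3 of 7). With replicate 1 of URE het Tet2 het left out these became 1, 0, 1, 0 and 0. Daam1 and Amigo2 also had 0 when replicate 2 of URE het Tet2 KO was left out. Mir6417 enh.15 was 0.0857 to 0.547 CPM in Normal and 2.38, 0.552, 0.848, 7.30 and 4.50 CPM in AML, with all AML libraries above all Normal ones. Its change was 3.49 ± 0.45 (edgeR adjusted p = 0.000532) and it passed in all 17 omissions.

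None of the 49 Foxp1 rows was called, and their log2 fold changes lay between -0.35 and 0.75. No row was called either at Dtnbp1 (7 kept rows, -0.52 to 0.70), Arid1b (19 kept rows), Nedd9 (21), Mllt3 (23) or Runx2 (22).

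Gene lists for blood progenitors and their pathways gave the following counts, to be read against the shares among all rows (4.36% higher, 2.23% lower; median 0.03). Haematopoietic transcription factors had 265 kept rows in 24 hosts, 11 higher (all Nfia) and 19 lower (Bach2, Ikzf2, Mecom, Mef2c, Meis1 and Runx1), with a median of -0.14. Chromatin regulators had 130 rows in 12 hosts, 12 higher (10 of Hdac9, 1 of Jarid2 and 1 of Tet2) and none lower, with a median of 0.20. None of the 3 hosts had a passing row when replicate 1 of URE het Tet2 het was left out, and Jarid2 had none in 13 of the 17 omissions. Receptors for cytokines and adhesion had 41 rows, 1 higher (Cxcr4) and 4 lower (Cd44). Signalling and cytoskeletal genes had 109 rows, 1 higher (Sipa1l1) and 1 lower (Vav3). Myeloid effector genes had 11 rows, 6 higher (5 of F13a1 and 1 of Ly86), and described PU.1 targets had 50 rows, 1 higher (Ly86) and 3 lower (Cd180 and Mef2c). Metabolic and stress genes had 57 rows with 1 lower (Ier5). The list of microRNA and long non-coding host genes matched only 2 hosts, Pvt1 and Dleu2, and their 11 rows had no call. Mir6368, Mir6417 and Bach2os, which had calls, are not in that list.

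Tet2 itself was among the hosts, with 7 kept rows. Tet2 enh.2 was called higher in AML (1.21 ± 0.27, edgeR adjusted p = 0.0142) and the other 6 were not, with changes from 0.14 to 1.02. The Tet2 gene row changed by 0.55 ± 0.15 (edgeR adjusted p = 0.0349). No Tet2 row passed without URE het Tet2 KO replicate 3 or when replicate 1 of URE het Tet2 het was left out. Mecom, which encodes the stem cell factor EVI1, had 2 of 15 rows called lower with a median of -2.31, and its gene row fell by 2.27 (± 0.65 SE, edgeR adjusted p = 0.0469). No Mecom row passed without URE het Tet2 het replicate 1.

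Enhancer rows broadly followed their gene row. For the 5148 kept rows whose gene row was also tested, the log2 fold changes of row and gene correlated with a Pearson coefficient of 0.67 and a Spearman coefficient of 0.63, a description across rows that share libraries and hosts. They had the same sign in 72.8% and differed by less than 1 in 87.4%. Of the 117 rows called higher, the gene row was called higher for 53, not called for 55, lower for 1 and untested for 8. Of the 143 called lower, it was called lower for 51, not called for 80, higher for 2 and untested for 10. Over the 4895 kept rows of the 480 hosts with at least 5 of them, hosts accounted for 73.2% of the variance of the log2 fold change. Grouping into this many hosts gives some share even without a host effect, and that part was not taken off.

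**Figure D4:**
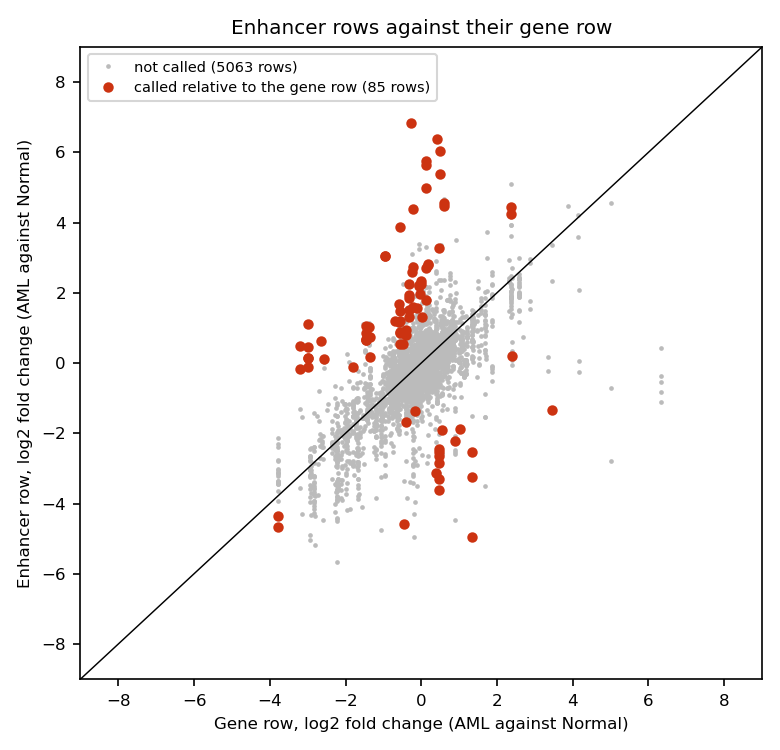
Log2 fold change of AML against Normal for 5148 enhancer rows (vertical axis) and for their gene row (horizontal axis), with the line of equal change. Red points are the 85 rows called relative to the gene row in the count model, 65 above it and 20 below.

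Whether a row moved by another amount than its gene was tested in an edgeR count model with the gene row as offset. It called 85 kept rows (1.65%) in 47 hosts, 65 above the gene row and 20 below, beside 1.83% of all 17728 enhancer rows so tested (1.65% above and 0.186% below). The count was 18 without URE het Tet2 het replicate 1, 46 without URE het Tet2 KO replicate 2 or 3, 137 without its replicate 1 and 156 when replicate 2 of URE het Tet2 het was left out. With 1 CPM in place of 0.1 CPM added to the gene row it was 75, with 51 above and 24 below. Of the 85 rows, 42 had a consecutively numbered row of the same host called on the same side. All rows of a host share its gene row as offset, so a change of that row alone moves them to the same side. The 42 are therefore no evidence of local runs. The ratio of logarithms, tested with limma, called 416 rows (8.08%, beside 5.93% of all), 341 above and 75 below (4.67% and 1.26% of all). Of those 416, 375 had a mean under 1 on the log2 CPM scale, and 280 of the 341 above their gene had a log2 fold change below 0 themselves. That count was 134 with 0.1 CPM added in place of 0.5 CPM, and 630 with 2 CPM. It is therefore not used to name rows, and the count model was chosen after this was seen.

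At some hosts the gene row was called lower and no enhancer row was. Pgap1, which encodes an enzyme that remodels GPI anchors, had 5 kept rows and all were called above the gene row. Their sum was 13.3 to 28.5 CPM in Normal and 36.2, 15.7, 19.1, 22.6 and 21.5 CPM in AML, with overlap in 4 of 5 AML libraries. The Pgap1 gene row went from 0.679 to 3.52 CPM in Normal to 0.294, 0.340, 0.254, 0.0286 and 0.0302 CPM in AML, all below Normal. It held 551 counts over all libraries. At such levels the 0.1 CPM added to the gene row weighs on the size of the difference, and all 5 calls rest on this 1 gene row. Relative to the gene, Pgap1 enh.10 changed by 2.80 ± 0.35 (edgeR adjusted p = 0.000152). Etv5, an ETS transcription factor gene, had 5 of 6 kept rows called above its gene row, which fell by 1.47 (± 0.36 SE, edgeR adjusted p = 0.0205). Etv5 enh.9 was 4.44 to 10.998 CPM in Normal and 19.4, 5.48, 11.9, 9.11 and 10.8 CPM in AML, with 2 AML libraries above Normal, and its difference from the gene row was 2.63 ± 0.34 (edgeR adjusted p = 0.000152). Both rows passed with each of the 17 libraries left out. Irf4, a lymphoid and dendritic cell transcription factor, gave the same picture at enh.12 (row change 0.11 ± 0.23, edgeR adjusted p = 0.833, against -2.56 ± 0.45 for the gene row, edgeR adjusted p = 0.0033). The Irf4 gene row was also low in AML, at 0.0424 to 0.531 CPM.

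At other hosts a run of numbers moved away from both the gene and the remaining rows. Rev1, a translesion DNA polymerase gene at chr1:38052786-38129801, had rows enh and enh.1 at -0.35 and 0.10. Its 10 rows from enh.4 to enh.13 lay between -3.62 and -1.65, and 6 of them were called below the gene row (0.46 ± 0.15, edgeR adjusted p = 0.0715). Rev1 enh.13 was 0.573 to 5.97 CPM in Normal and 0, 2.59, 0.0848, 0 and 0 CPM in AML, so 4 AML libraries were below Normal. Relative to the gene row it changed by -4.09 ± 0.84 (edgeR adjusted p = 0.00989, and at most 0.0384 in the 17 omissions). On the side of higher coordinates the next tested gene, 47.5 kb away, is Aff3, whose gene row stood at -2.23 ± 0.88 (edgeR adjusted p = 0.144) and whose own rows are described above. Eif5b, which overlaps Rev1, had a gene row at 0.04 ± 0.20 (edgeR adjusted p = 0.938). Txndc9, 54.9 kb away on the side of lower coordinates, had one at 0.17 ± 0.13 (edgeR adjusted p = 0.488). Which gene's transcription such rows follow was not tested.

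Tbl1xr1, a subunit gene of the NCoR/SMRT corepressor, held 3 stretches. Its rows enh.9 to enh.17 stood at 1.45 to 2.70, and rows enh.25 to enh.32 at -0.18 to 0.21 beside a gene row at 0.12 ± 0.18 (edgeR adjusted p = 0.746). Between them Tbl1xr1 enh.22 had a Normal median of 0 and a maximum of 0.235 CPM, so no fold is given, and reached 2.48 CPM in AML. Tbl1xr1 enh.16 was 0.0733 to 0.414 CPM in Normal and 2.48, 0.659, 2.33, 1.60 and 0.574 CPM in AML, with every AML library above every Normal one. Relative to the gene row it changed by 2.495 ± 0.41 (edgeR adjusted p = 0.000849, at most 0.0306 in the 17 omissions). In all, 5 Tbl1xr1 rows were called above the gene row. Tbl1xr1 enh.22 reached 10 counts in no Normal library. It passed the filter through AML libraries only, so its height there is no separate result. Rtkn2 had rows enh.2 to enh.6 at -1.31 to -0.55 and rows enh.10 to enh.17 at 0.50 to 1.49. Of the latter, 5 were called above the gene row, as was enh.8, which is near 0 CPM in Normal.

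Runx1 split at the same kind of border: rows enh to enh.2 were at 0.23 to 0.50, near the gene row (0.41 ± 0.23, edgeR adjusted p = 0.328), and the 9 rows enh.3 to enh.11 at -1.14 to -0.88. Of these, enh.4, enh.6 and enh.11 were called lower (edgeR adjusted p = 0.0305, 0.0388 and 0.0165). None of the Runx1 rows was called relative to the gene row, and no row passed without URE het Tet2 het replicate 1. Zbtb18, a zinc finger repressor gene, changed direction within its series. Rows enh.4 to enh.6 stood at -3.14 to -1.55 and rows enh.7 to enh.10 at 2.27 to 2.90. Zbtb18 enh.7 was 0.0615 to 1.91 CPM in Normal and 8.75, 1.17, 0.721, 6.62 and 13.1 CPM in AML, whereas enh.6 was 0.177 to 1.49 CPM in Normal and 0.0979, 0.0425, 0.127, 0.0286 and 0.0302 CPM in AML. No Zbtb18 row passed without URE het Tet2 het replicate 1.

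**Figure D5:**
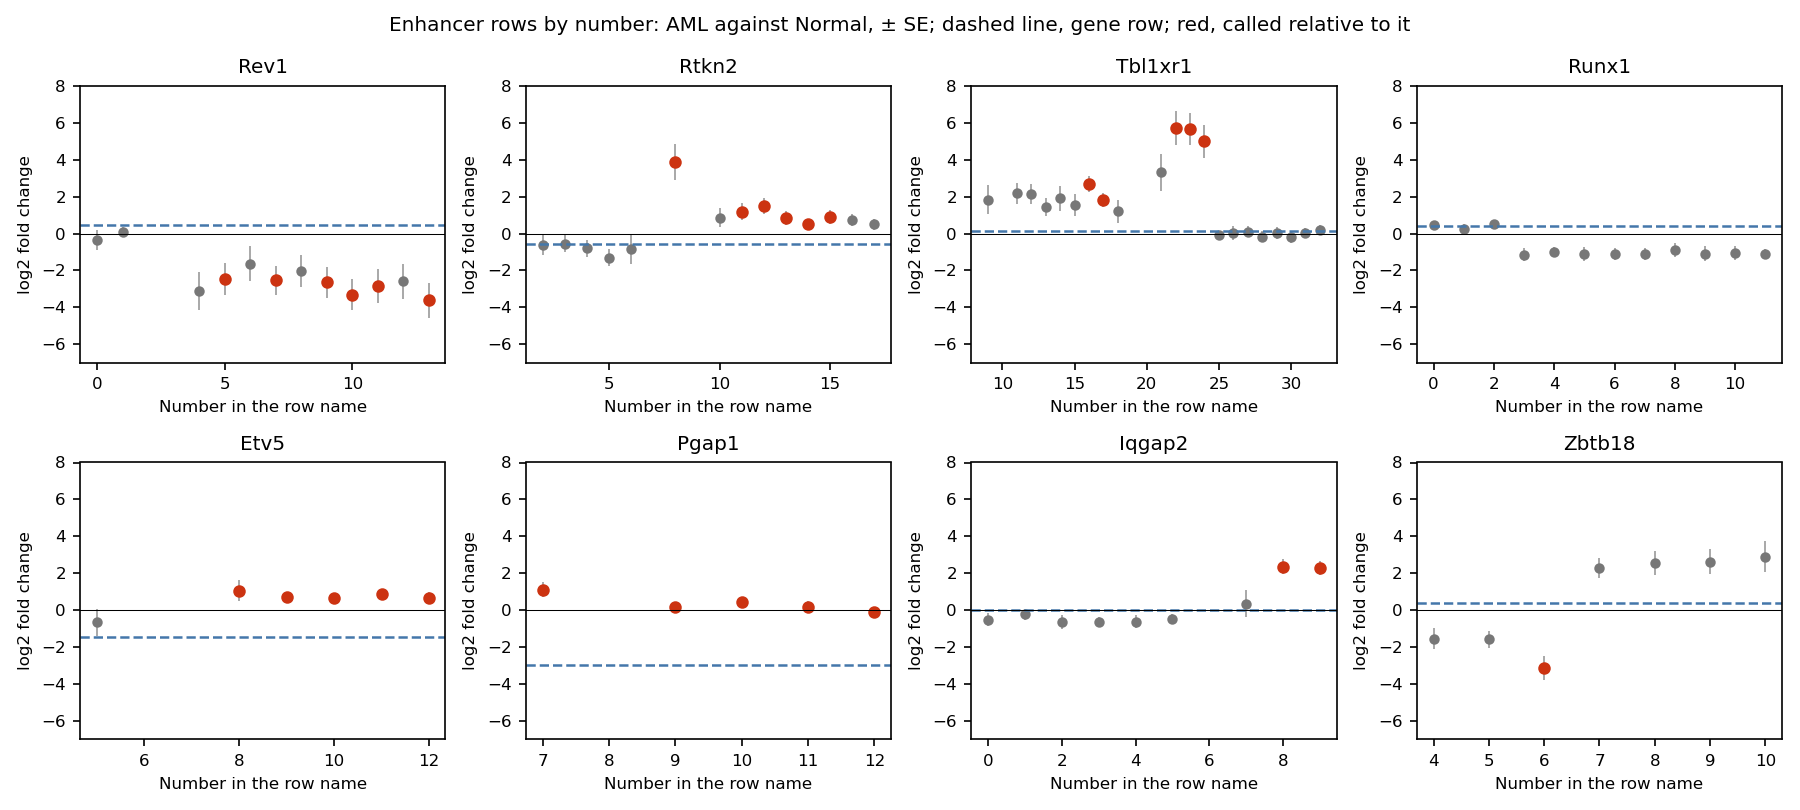
Log2 fold change of AML against Normal (vertical axis, ± SE) of the kept enhancer rows of 8 hosts by the number in the row name (horizontal axis, with 0 for a name without number). The dashed line is the gene row and red points are rows called relative to it (Tbl1xr1 enh.22 to enh.24 and Rtkn2 enh.8 are near 0 CPM in Normal, so their fitted values are no measured fold); Rev1, Rtkn2, Tbl1xr1, Runx1, Iqgap2 and Zbtb18 change level at a border between numbers.

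The comparisons of compound with single genotypes hold Tet2 fixed. URE het Tet2 KO against Tet2 KO called 9 kept rows, 0.168% beside 0.411% of all rows, and 773 had an unadjusted p under 0.05 (14.4% of the kept rows, beside 12.5% among all rows tested). Of all rows 0.168% were higher and 0.244% lower. The 3 higher were Iqgap2 enh.8 and enh.9 and Mir6417 enh.15, and the 6 lower were Meis1 enh.4, Rab38 enh.7, Fyn enh.13, Chn2 enh.7, Plet1 enh.7 and Gpd2 enh.2. Iqgap2, a scaffold protein of the cytoskeleton, held 2 of them. Its enh.9 was 0.764, 0.697 and 0.646 CPM in Tet2 KO and 6.57, 10.5 and 9.43 CPM in URE het Tet2 KO, which do not overlap. The change was 3.65 ± 0.67 (edgeR adjusted p = 0.0341). Iqgap2 rows enh to enh.5 stood at -0.66 to -0.23 in AML against Normal, beside 2.33 ± 0.41 for enh.8 and 2.26 ± 0.37 for enh.9, and a gene row at -0.0028 ± 0.14 (edgeR adjusted p = 0.00319, 0.00212 and 0.995). Both AML calls at Iqgap2 were lost (edgeR adjusted p = 0.167 and 0.114) when replicate 1 of URE het Tet2 het was left out.

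Rab38 enh.7 fell from 0.726, 0.996 and 1.32 CPM in Tet2 KO to 0.0848, 0 and 0 CPM in URE het Tet2 KO, and Chn2 enh.7 from 2.21, 0.830 and 1.38 CPM to 0.127, 0.0286 and 0.181 CPM. All 9 were lost (edgeR adjusted p up to 0.204 for Gpd2 enh.2) when any 1 Tet2 KO library or replicate 2 or 3 of URE het Tet2 KO was left out, and 212 rows were called without URE het Tet2 KO replicate 1. DESeq2 called 240. URE het Tet2 het against Tet2 het called no kept row by edgeR (0.0% of all rows) and 329 had an unadjusted p under 0.05 (6.13% of the kept rows, beside 9.32% among all rows tested), while DESeq2 called 20. Without URE het Tet2 het replicate 2, which leaves that group 1 library assumed to vary like the others, edgeR called 102. The median log2 fold change was -0.28 in the first comparison and -0.27 in the second, and they share no control libraries.

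The 163 kept rows of the 23 hosts between 60 and 160 Mb of chromosome 2 were 3.04% of all kept rows. Their median log2 fold change was -0.72, against -0.20 over all kept rows. Of these 163 rows 3 were called higher and 10 lower. The 10 were 6.99% of all kept rows called lower, a share to be set beside the 3.04%. With rows tested as the base instead, 2.18% of all kept rows were called higher and 2.67% lower. Among all rows tested these shares were 4.36% and 2.23%. Over rows with a mean of at least 1 CPM in Normal, the median level in percent of the Normal mean was 59.9 for replicate 1 of URE het Tet2 het, and 39.6 and 33.2 for replicates 2 and 3 of URE het Tet2 KO, against 103, 57.7 and 65.3 elsewhere. The other 2 AML libraries differed less: replicate 2 of URE het Tet2 het was at 87.6 against 99.7, and replicate 1 of URE het Tet2 KO was higher in the stretch, at 69.4 against 64.2. Cd44 lies in that stretch and gave 4 of the 10 lower rows. Cers6, also there, gave 2 of the 3 higher rows. The other 133 rows called lower lie outside it, and what part the difference on chromosome 2 has in the 10 was not tested.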

How the data were processed

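RNA-seq of 17 libraries was deposited as 1 table of counts per gene and per enhancer row. Per the submitters' processing notes the authors used STAR and the GRCm38 build; how enhancer rows were defined and counted, and whether strand was used, is not stated in any source used. The deposited counts are whole numbers and not normalized.

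Rows with 10 counts in at least 3 libraries were kept (40587 of 96004). They were tested together with edgeR 4.0.16 in R 4.3.3 (quasi-likelihood, robust), with library sizes and TMM factors from gene rows and 6 group means. Benjamini-Hochberg adjustment ran over all rows, and 0.05 was the threshold. SE values are the log2 fold change over the root of F. AML against Normal is the mean of 2 groups against the mean of 4. The ratio to the gene row was tested with limma 3.58.1 on log2(CPM + 0.5), and, chosen after seeing that the pseudocount decided it, with edgeR and the gene row level plus 0.1 CPM as offset. DESeq2 1.42.0 was an alternative, as were other scalings, filters, pseudocounts, title number terms and leaving out each library.

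Symbols and coordinates came from GENCODE, matched by identifier for 47224 gene rows, and promoters from RefSeq GRCm38.p6. Tested on simulated data for AML against Normal (40587 rows), edgeR recovered 3.41% of 88 changes of 1 log2 unit and 42.0% of 112 of 2 log2 units, with 1 false call of 51, so changes of the smaller size were mostly missed. The changes were planted only in kept enhancer rows with higher total counts, and the same change was given to all AML libraries. The real AML libraries differ and many called rows have few counts, so these rates need not hold for them.

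Named hosts and rows were those with the most kept rows, the highest summed CPM, the most calls in each direction, the largest changes among calls (mean log2 CPM of 1 or more), the largest differences from the gene row, and members of the gene lists; clone-named genes were left out. All kept rows of the 8 hosts plotted by number, and the hosts without calls, were described after their values were seen. The members and lists were chosen with earlier results of these data known. Counts in pairs of libraries of a group differed by more than sampling noise (chi-square per degree of freedom 53.7 to 392).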

Additional observations from a re-analysis of the deposited data

Results flagged for a closer look

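The 5 AML libraries were searched, at the high and the low end, for 1 library far from the other 4 in 26 named enhancer rows (52 ends), and 6 rows had one. The gap had to exceed 0.71 of the range, a limit that chance passes in about 1 in 20 groups if values are normally distributed. CPM near 0 are not, and the rows were named for results in these same data. The 6 rows can therefore not be read against that rate. In each it was URE het Tet2 het replicate 2 that was highest. It stood at 2.21 CPM for Angpt1 enh.17 (next library 0.0979 CPM), 3.06 CPM for Angpt1 enh.8 (0.0859 CPM) and 6.56 CPM for Angpt1 enh.20 (0.143 CPM). For Meis1 it stood at 5.52 CPM at enh.4 (0.127 CPM) and 4.02 CPM at enh.9 (0.382 CPM). For Adgrl4 enh.9, in the gene of an adhesion receptor of endothelium, it stood at 2.74 CPM (0.574 CPM). The 6 rows lie in 3 hosts and share this library, so they are not independent.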

How the results depend on the processing

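For AML against Normal, 260 enhancer rows became 635 with no filter on low counts, 138 with 10 counts in at least 9 libraries, 560 with a title number term, 728 in libraries 8 to 17 alone and 665 by DESeq2, and 28 to 654 with 1 library left out. For URE het Tet2 KO against Tet2 KO, 9 became 4 with TMM from enhancer rows, 190 with no filter, 47 with the title number term and 240 by DESeq2, and 0 to 212 with 1 library left out. For URE het Tet2 het against Tet2 het, 0 became 29 with no filter and 20 by DESeq2, and 0 to 102 with 1 library left out. For Tet2 KO against WT, 0 became 1 with no filter and 2 by DESeq2. The 416 limma ratios became 1206 with no filter, 147 with the stricter filter, 134 with a pseudocount of 0.1 and 630 with 2, and 46 to 681 with 1 library left out. The 85 rows of the count model became 75 with 1 CPM added to the gene row, 42 with the stricter filter and 174 in libraries 8 to 17 alone, and 18 to 156 with 1 library left out. The cause was not tested. Of the values of single named rows, 83 for AML against Normal, 51 for URE het Tet2 KO against Tet2 KO and 404 relative to the gene row lost the threshold, and 397, 56 and 1242 kept it; none changed direction. No paired analysis was possible because the labels number no replicates within groups. Rows with few counts limit the depth: only 58 of the 260 had a mean of at least 1 log2 CPM.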
